A study of Mus musculus with 42 samples.

Results

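The 8 genes described here encode DNAJ (HSP40) co-chaperones: Dnaja1, Dnaja2 and Dnaja4 of class A, Dnajb1, Dnajb2, Dnajb4 and Dnajb6 of class B, and Dnajc7 of class C. They were chosen by gene symbol, 8 of 12364 symbols in the RNA-seq tables and 8 of 13682 genes with a polyadenylation site (PAS) in the 3′READS tables. In the 3′READS tables a member holds every PAS inside its mm9 gene span or within 4000 nt downstream on the same strand, up to the next gene, which gave 88 of 83916 PAS clusters. The series asks how arsenic stress changes gene expression and the use of alternative polyadenylation (APA) sites. It holds 42 libraries, 38 made by 3′READS, which sequences the 3′ ends of poly(A)+ RNA, and 4 made by RNA-seq. NT cells were left untreated. AS cells received 250 µM sodium arsenite for 1 h. RC cells received the same arsenite and were then washed and kept in normal medium for 4, 8, 12 or 24 h (RC4, RC8, RC12 and RC24). NIH3T3 is a line of mouse embryo fibroblasts, and its total RNA comprised 3 NT and 3 AS libraries (replicates 1, 2 and 4) and 1 library for each recovery time (replicate 4). RNA of cells labelled with 50 µM 4-thiouridine (4sU) for the last 1 h before harvest was separated into fractions. The 4sU fraction is enriched for newly made RNA and the flow-through fraction (Ft) for older RNA, with 2 NT, 1 AS and 1 RC4 library each. The RNA-seq libraries comprised 2 NT, 1 AS and 1 RC4. In these sets, and in the cytoplasmic sets below, the NT libraries were harvested at 0 h and at 4 h. Cytoplasmic RNA bound by an antibody to the stress granule protein TIA1, and the input of that pull-down, had 2 NT and 2 AS libraries each. C2C12 cells, a mouse myoblast line that fuses to myotubes, gave total RNA of untreated myoblasts (MB, 2 libraries) and myotubes (MT, 2 libraries) and cytoplasmic RNA of each state (2 NT, 1 AS and 1 RC4). All cells carry the strain label C57BL/6, and each of these lines is a single cell line.

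DNAJ proteins carry a J domain that stimulates the ATPase of HSP70, and many of them bind unfolded clients and hand them over. Class A and B proteins share a glycine- and phenylalanine-rich stretch, and class A proteins add a zinc finger-like domain. Dnajb1 is the stress-inducible partner of HSP70 in the cytosol, and in many cells its transcription, like that of several HSP70 genes, is driven by heat shock factor HSF1. Sodium arsenite damages proteins in the cell and is a classical trigger of that response.

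Listed reads ranged from 1048335 to 6974664 per 3′READS library (median 2874186) and from 17137579 to 25194062 per RNA-seq library. The 3′READS tables list no site under 5 reads, so a gene at 0 is one with no listed site. Dnajb1, Dnaja1, Dnaja2, Dnajb2, Dnajb4 and Dnajb6 had reads in 38 of 38 libraries, Dnaja4 in 29 and Dnajc7 in 25. All 8 fibroblast markers had reads in all 3 NT libraries of NIH3T3 total RNA, in which no myoblast or myotube marker was listed. In C2C12 cells 7 of the 8 fibroblast markers had reads too, and Thy1 was at 0. The summed myotube markers reached 74.4 to 78.3 RPM (reads per 1000000 listed reads of the library) in MB and 11606 to 11822 in MT. The summed myoblast markers, of which 4 of 5 had reads in every library, stood at 303 to 311 RPM in MB and at 1256 to 1380 in MT, where Msc was at 0. The labels do not say that replicates came from separate cultures, so the p-values below measure the spread between these libraries only.

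The PASs that carried most reads of each gene but Dnajc7 are shown first, since the isoform results turn on them. Each line gives the last 30 nt up to the cleavage position, 5′ to 3′ on the gene's strand of mm9, with the poly(A) signal hexamer in capitals. For Dnajb1 and Dnaja4 both the proximal (pPAS) and the distal site (dPAS) are given, as these separate short from long 3′UTRs.
Dnajb1 pPAS, chr8:86134839-86134868, plus strand: cacagAATATAttacaatctttcaaagtcg
Dnajb1 dPAS, chr8:86135773-86135802, plus strand: gacagcATTAAAgactgatgctaaacctca
Dnaja4 pPAS, chr9:54563187-54563216, plus strand: agccAATAAAgccatttgcctgtaacccca
Dnaja4 dPAS, chr9:54564097-54564126, plus strand: aaaATTAAAattgaactggtatgagacaaa
Dnaja1 main site, chr4:40680904-40680933, plus strand: ggctgtctAATATActgattacaaagtgtt
Dnaja2 main site, chr8:88062528-88062557, minus strand: aacttgatAATAAAaagcagttggtgtaaa
Dnajb2 main site, chr1:75242238-75242267, plus strand: acggaggcaAATAAAgctgagttttgagaa
Dnajb4 main site, chr3:151847054-151847083, minus strand: atttttaaAATATAtttacattctaaaaaa
Dnajb6 main site, chr5:30093592-30093621, plus strand: aaaaaAATAAAtgcgaatgtgtttggtgca
The Dnajb1 dPAS took 75.16% and the pPAS 23.69% of all Dnajb1 reads over the 38 libraries. Both lie in the last exon or 1 nt past its annotated end, 1084 and 150 nt after the stop codon, so the isoforms differ by 934 nt of 3′UTR (the aUTR), which holds 9 UUUU words. Neither Dnajb1 site has the canonical AATAAA within its window, nor do the main sites of Dnaja1 and Dnajb4, while those of Dnaja2, Dnajb2 and Dnajb6 and the pPAS of Dnaja4 do. Dnaja1 and Dnaja2 put 93.74% and 91.81% of their reads at the main site. The main Dnajb2 site, with 98.71% of the reads, lies 888 nt past the annotated end. Dnajb4 was the most spread of the genes printed above, with 53.1% at its main site. Dnajc7, not printed, had 45.88% of its few reads at its main site.

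RNA-seq asked how much coding RNA of each gene was present. The treated groups had 1 library each and their folds were not tested. A gene was called when it was past 2-fold in the same direction against every NT library of its set. After 1 h of arsenite Dnajb1, Dnaja4 and Dnajb4 were above 2-fold, and at 4 h of recovery Dnaja1 and Dnaja2 were as well. In RPM per kb of coding sequence, Dnajb1 stood at 25.2 and 25.4 in the NT libraries, 751 in AS and 1747 in RC4. Its raw reads were 490, 446, 17497 and 45029, and the NT libraries lay close together and far below both treated libraries. After median-ratio normalisation the fold over the NT libraries was 30.6 and 30.4 in AS and 121 and 120 in RC4. Dnaja4, the least abundant class A gene at 3.08 and 3.27 RPM per kb in NT, reached 22.2 in AS and 214 in RC4, folds of 7.31 and 6.89 and then 119 and 113. Dnajb4 read 103 and 91.6 in NT, 300 in AS and 439 in RC4 on the same scale, folds of 3.00 and 3.37 and then 7.45 and 8.36. In bulk RNA, more expressing cells and more RNA per cell cannot be told apart.

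Dnaja1 and Dnaja2 are abundant class A genes of unstressed cells. Dnaja1 read 349 and 352 RPM per kb in NT, 668 in AS and 1862 in RC4. Its folds of 1.97 and 1.96 in AS stayed just under the 2-fold line and became 9.29 and 9.24 in RC4. In RC4 the RNA-seq levels of Dnaja1 and Dnajb1 per kb were close to each other, while in NT every Dnaja1 RNA-seq value lay far above every Dnajb1 value. That gap was not seen in 3′READS total RNA of NT cells. There Dnaja1 read 32.6, 13.2 and 93.1 RPM and Dnajb1 35.4, 39.7 and 89.7 in replicates 1, 2 and 4.

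Dnaja2 read 269 and 254 in NT, 262 in AS and 394 in RC4, and its RC4 folds were 2.55 and 2.70. Dnajb6, a class B protein that holds back aggregation of misfolded clients, read 229 and 219 in NT, 217 in AS and 252 in RC4, with RC4 folds of 1.92 and 2.01, so that it missed the call against 1 of the NT libraries. Dnajb2 read 18.0 to 21.5 and Dnajc7, which has tetratricopeptide repeats that hold HSP70 and HSP90, 67.2 to 104, and neither was called. In all, 3 of 8 members were called up in AS and 5 of 8 in RC4, against 2.14% and 13.8% of all genes tested, and no member was called down. Scaled to RPM instead of by median ratios, the median of all genes in RC4 moved to -0.80 (log2) and each member's mean value fell with it, that of Dnajb1 from 6.91 to 6.11 and that of Dnaja4 from 6.86 to 6.06. On that scale the split of all calls moved from 1540 up and 1365 down to 606 up and 4024 down, Dnaja2 at 0.59 was no longer called, and Dnajb2 and Dnajc7 changed sign to -0.23 and -0.57.

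**Figure D1:**
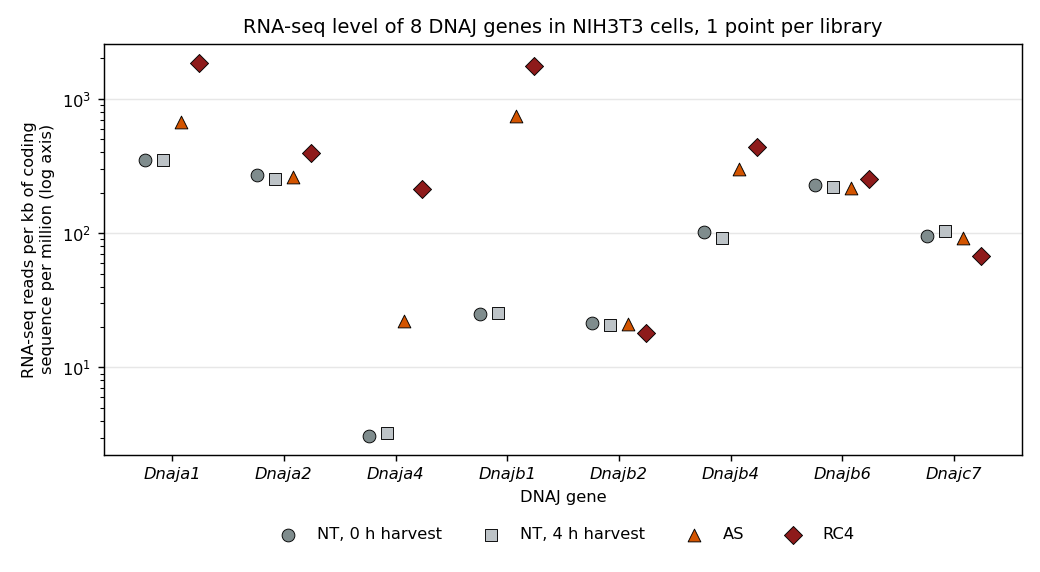
RNA-seq level in RPM per kb of coding sequence (log axis) of the 8 DNAJ genes in NIH3T3 cells, 1 point for each of 2 NT, 1 AS and 1 RC4 library. Dnajb1 goes from 25.2 and 25.4 to 751 and 1747, Dnaja4 from 3.08 and 3.27 to 22.2 and 214, and Dnajb2 lies between 18.0 and 21.5 in all 4.

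Newly made RNA asked when the change in levels was made. In the 4sU fraction Dnajb1 read 175 and 100 RPM in NT, 2754 in AS and 1120 in RC4. The folds were 17.3 and 32.3 in AS and 7.64 and 14.3 in RC4, so the level of newly made Dnajb1 RNA was higher in AS than in RC4. Dnajb4, a class B gene close to Dnajb1 in sequence, was at a similar level in both, with 106 and 135 RPM in NT, 331 in AS and 299 in RC4. Its folds were 3.43 and 2.89 in AS and 3.37 and 2.84 in RC4. The class A genes Dnaja1 and Dnaja4 had their highest 4sU level in RC4. Dnaja1 read 103 and 125 RPM in NT, 279 in AS and 648 in RC4, folds of 2.98 and 2.63 and then 7.54 and 6.64. Dnaja4 read 4.8 and 3.5 RPM in NT, 39.6 in AS and 75.1 in RC4, folds of 8.60 and 12.0 and then 17.6 and 24.7, on few NT reads. These 4 genes were the members called up in AS, of 7 tested, against 2.62% of all genes. Dnajb2 was added in RC4, at 2.28- and 2.36-fold, which gave 5 of 8 against 10.9% of all genes. Scaled to RPM the Dnajb2 value in RC4 was 0.91 on the log2 scale and was not called, with all calls moving from 1091 up and 998 down to 690 up and 1601 down. The median of all genes lay at -0.19 in AS and -0.28 in RC4 on that scale, and all AS calls moved from 254 up and 473 down to 175 up and 706 down, with the same number of members called.

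In the flow-through, which is enriched for older RNA, Dnajb1 was higher in RC4 than in AS. It read 55.5 and 44.6 RPM in NT, 634 in AS and 1278 in RC4, folds of 11.3 and 14.6 and then 30.1 and 38.8. In AS the 1 h of labelling was also the 1 h of arsenite, so the flow-through can hold RNA made in that hour but not captured. How much of the AS level was such RNA was not tested. Dnajb1 and Dnajb4 (folds of 3.32 and 2.14) were the 2 of 7 members called in AS, against 1.76% of all genes. In RC4, 6 of 7 were called, against 11.5%, and Dnajb2 was left out. Dnaja1 stood at 11.7- and 7.65-fold, Dnajb4 at 8.13- and 5.24-fold, Dnaja2 at 2.42- and 2.08-fold and Dnajb6 at 2.12- and 2.16-fold. Dnaja4 was listed at 0 in one NT library and stood at 18.7-fold against the other. Scaled to RPM, where the median of all genes moved to -0.43 and the split of all calls from 1078 up and 987 down to 586 up and 1864 down, Dnaja2 at 0.74 and Dnajb6 at 0.67 (log2) were no longer called.

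Total RNA of NIH3T3 cells was the set with replicates of AS. Dnajb1 read 35.4, 39.7 and 89.7 RPM in NT replicates 1, 2 and 4, and 137, 734 and 267 RPM in the AS replicates of the same numbers. Every AS library lay above every NT library, and the AS libraries differed among themselves by more than the NT libraries did. The log2 fold change was 2.84 (SE 0.75, n = 3 against 3), with an unadjusted p of 0.0068 and an adjusted p of 1.00 in edgeR's quasi-likelihood test, and 0.599 in DESeq2. No gene of 9230 passed in this edgeR fit (0.00% up and 0.00% down), with 19 at an unadjusted p under 0.05, and DESeq2 also called none, and leaving out AS replicate 2 lowered the Dnajb1 value to 1.86. Libraries of the same number deviated together from their group means, and with the replicate number as a block 0.271% of genes passed upward and 0.0108% downward. Dnajb1 was then the only member of 7 tested that passed, at 2.64 (SE 0.41, adjusted p = 0.0305 by edgeR with the block). Dnajb4 read 31.9, 14.3 and 5.4 RPM in NT and 54.7, 53.2 and 15.3 in AS, above its own NT library in each pair although the groups overlapped. Its blocked log2 fold change of 1.37 (SE 0.25) had an adjusted p of 0.0682 by edgeR. Dnaja1 (0.82, SE 0.28), Dnaja2, Dnajb6, Dnajb2 and Dnajc7 had adjusted p-values of 0.495 or more in the same blocked edgeR fit, and Dnaja4, at 0 to 5.4 RPM in these libraries, did not pass the filter on low counts. Replicate 1 libraries held 46.0 and 46.3 RPM of Dnajb6, while replicates 2 and 4 held 173 to 416 RPM.

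**Figure D2:**
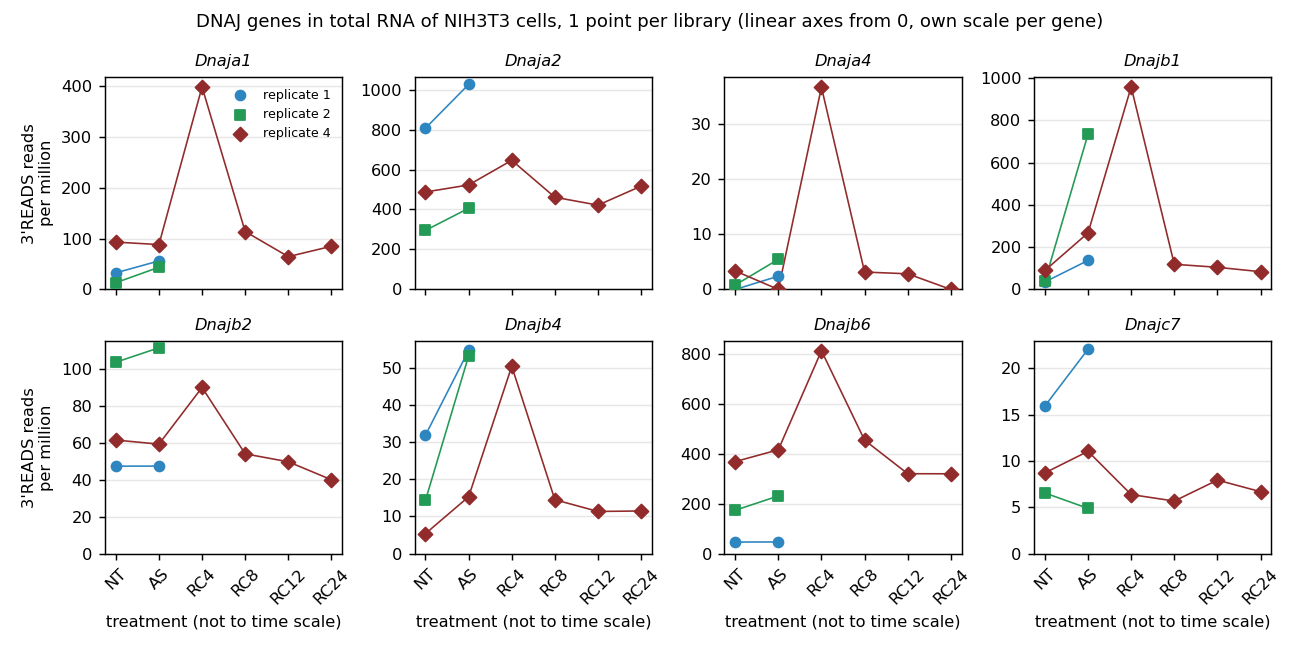
RPM of the DNAJ genes in NIH3T3 total RNA (linear axes from 0, a scale of its own per gene) for NT, AS and recovery libraries, with lines joining libraries of the same replicate and recovery times in order but not to time scale. Dnajb1 is higher in AS than in NT in each replicate, reaches 958 RPM at 4 h of recovery and lies at 83.9 RPM at 24 h.

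The recovery libraries of replicate 4 gave the return of each gene. Dnajb1 read 89.7 RPM in NT, 267 in AS, 958 in RC4, 119 in RC8, 105 in RC12 and 83.9 in RC24. Most of the distance was covered between 4 and 8 h, where the fold over NT went from 12.6 to 1.26, and RC24 stood at 0.91. Dnaja1 followed with 93.1 RPM in NT, 88.2 in AS, 398 in RC4 and 114 in RC8, its RC4 fold being 5.06. Dnajb4 read 5.4 RPM in NT, 15.3 in AS, 50.4 in RC4, 14.5 in RC8, 11.3 in RC12 and 11.4 in RC24, folds of 10.0, 2.40, 1.93 and 1.96 in the recovery libraries. It was the highest of the tested members relative to NT at 24 h in these single libraries, on 8 reads in NT and 12 in RC24. NT replicates 1 and 2, at 31.9 and 14.3 RPM of Dnajb4, lay above its RC12 and RC24 values. Dnaja4 had 10.9-fold and Dnajb6 2.62-fold the NT value in RC4, while Dnaja2 (1.58) and Dnajb2 (1.73) stayed under the line. Of the members tested, 5 of 8 were called up in RC4 (11.7% of all genes), 1 of 7 in RC8 (5.88%), 0 of 7 in RC12 (3.19%) and 0 of 7 in RC24 (1.93%). Scaled to RPM, the split of all RC4 calls moved from 948 up and 713 down to 644 up and 1152 down, around a median of -0.23, and the number of members called stayed at 5.

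A pooled edgeR fit over the 10 total RNA libraries, with the replicate block and the lone recovery library assumed to vary like the other groups, gave errors for these values. In RC4, 4 members passed, where 4.26% of genes passed upward. These were Dnajb1 at a log2 fold change of 4.15 (SE 0.62, adjusted p = 0.0110 by edgeR), Dnajb4 at 3.35 (SE 0.44, 0.0077), Dnaja1 at 2.71 (SE 0.41, 0.0110) and Dnajb6 at 1.37 (SE 0.21, 0.0125). Dnaja4, at 5.23 with an SE of 1.42, did not pass (edgeR adjusted p = 0.0656), nor did Dnaja2 (0.0828) and Dnajb2 (0.0959). No member passed in RC8, RC12 or RC24, where 0.0906%, 0.00% and 0.00% of genes passed upward.

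In C2C12 cytoplasmic RNA, the question was whether myoblasts and myotubes change the same genes. Dnajb1 of MB read 189 and 147 RPM in NT, 2147 in AS and 4601 in RC4. In MT it read 131 and 164 RPM in NT, 1744 in AS and 9464 in RC4, the highest value of any member in the 38 libraries. The AS folds were 11.0 and 13.7 in MB and 13.1 and 10.2 in MT, and the RC4 folds were 31.7 and 39.6 in MB and 82.6 and 64.1 in MT. Dnaja4 had 13.3 and 10.4 RPM in NT, 80.5 in AS and 215 in RC4 of MB, and 21.9 and 21.0, 43.4 and 356 RPM in MT. Its AS folds were 5.64 and 6.94 in MB and 1.94 and 1.97 in MT, while the RC4 folds were 20.3 and 24.9 in MB and 18.4 and 18.6 in MT. Dnaja1 in RC4 stood at 8.07- and 13.2-fold in MB and at 3.90- and 4.08-fold in MT. Dnajb4 stood at 3.47- and 4.71-fold in MB and at 6.55- and 7.17-fold in MT. With 1 treated library in each cell state, whether MB and MT differ in these folds was not tested. MB called 3 of 7 members in AS (2.49% of all genes up) and 4 of 7 in RC4 (5.56%). MT called 1 of 7 in AS (2.37%) and 4 of 7 in RC4 (5.33%), and the 4 genes of RC4 were Dnajb1, Dnaja1, Dnaja4 and Dnajb4 in both. Scaled to RPM these 4 were also called, while the split of all RC4 calls moved from 428 up and 670 down to 258 up and 1105 down in MB (median -0.35) and from 479 up and 555 down to 383 up and 739 down in MT (median -0.17). Dnajc7 was listed at 0 in 7 of the 8 cytoplasmic libraries.

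Over the 14 comparisons of a single treated library, 43 of 112 values of the 8 members were called up and none down, while over all genes 5.94% of the values tested in these comparisons were called up. Dnaja4 in 3 and Dnajc7 in 7 of the comparisons had too few reads to be considered. Dnajb1 and Dnajb4 were called in 11 of the 14, Dnaja4 in 9, Dnaja1 in 7, Dnaja2 and Dnajb6 in 2, Dnajb2 in 1 and Dnajc7 in none. The HSP70 partner list of 23 genes held HSP70 family members, nucleotide exchange factors, other co-chaperones and the factors HSF1 and HSF2. Its counts up were 5 of 23 in AS and 13 of 23 in RC4 by RNA-seq, and 4 of 20 and 9 of 21 in the 4sU fraction. They were 2 of 20 and 10 of 21 in Ft, 5 of 21 and 8 of 22 in MB, 6 of 21 and 11 of 22 in MT, and 7 of 21 in total RNA of RC4. The median log2 value of this list in RC4 by RNA-seq was 1.48, that of the 8 members 2.19, and that of all genes -0.00. In RNA-seq of RC4 the list held Hspa1b at 749-fold (geometric mean over the NT libraries), Hsph1, an HSP110 exchange factor, at 74.1-fold, Bag3, another exchange factor, at 19.2-fold and Hspa8, the constitutive HSP70, at 8.23-fold, while Hspa2 stood at 0.90-fold. Hspa1b shares nearly all its coding sequence with Hspa1a, so the split of reads between that pair is uncertain. The other 31 DNAJ genes gave 1 up and 0 down of 30 in AS and 2 up and 5 down of 30 in RC4 by RNA-seq, with a median of -0.01 in RC4. In the other comparisons of a single treated library at most 1 of them was called up and at most 2 down, while edgeR called 11 higher and 3 lower of 28 in MT against MB total RNA and 9 higher and 6 lower of 26 for Ft against 4sU. The gene named by the fixed rule was Dnajb9, a DNAJ protein of the endoplasmic reticulum, with log2 values of 1.31 and 1.47 in AS and 2.26 and 2.42 in RC4 by RNA-seq, 1.07 and 1.99 in newly made RNA of RC4, and 1.75 in total RNA of RC4.

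**Figure D3:**
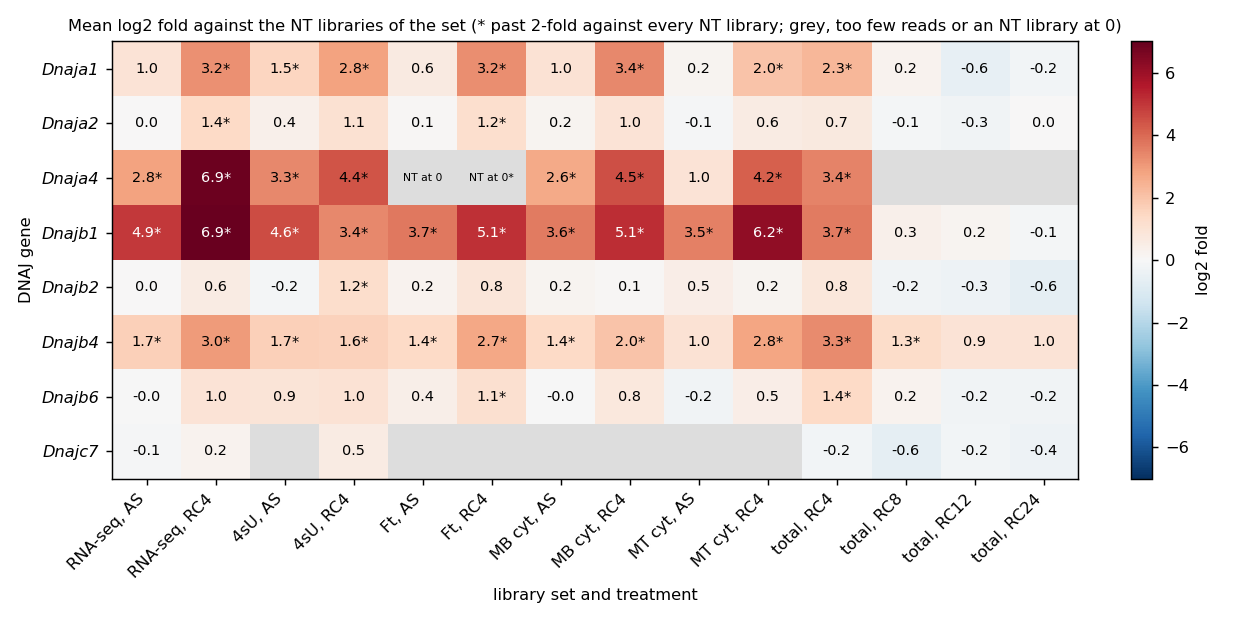
Log2 fold change over NT of each DNAJ gene (rows) in the 14 comparisons of a single treated library (columns), as the mean over the NT libraries of the set; a star marks a value past 2-fold against every NT library, and grey cells had too few reads or an NT library at 0. Dnajb1 is high in the AS and RC4 columns, Dnaja1 and Dnaja4 are highest in RC4, and the RC8, RC12 and RC24 columns are pale.

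The log2 ratio of Ft to 4sU RNA is the basis of the study's stability score, which also corrects for how many uracils a transcript has. That correction was not made here, so the values below are plain ratios. In untreated cells Dnajb1 and Dnajb4 had lower ratios than the typical gene. The ratio of Dnajb4 was -2.24 and -1.85 (log2) at the 0 h and 4 h harvests, lower than in all but 4.7% and 8.0% of genes, and that of Dnajb1 -1.54 and -1.0, lower than in all but 12.0% and 22.1%. In the replicated edgeR fit of NT libraries Dnajb4 had -2.0 (SE 0.23, adjusted p = 3.6e-05) and Dnajb1 -1.30 (SE 0.28, adjusted p = 0.0021, 2 libraries of each fraction). These were 2 of 7 members called, both lower, where 23.5% of all 9865 genes were called higher and 26.0% lower. With the harvest time as a block, since a 4sU and an Ft library come from the same RNA, 28.0% were higher and 30.2% lower, and 4 members passed. The added ones were Dnaja1 at -0.35 (SE 0.16, edgeR adjusted p = 0.0494) and Dnajb2 at 0.38 (SE 0.16, edgeR adjusted p = 0.0320). Dnaja2 and Dnajb6 lay near the median of all genes, at -0.03 and -0.01 and at 0.27 and 0.24.

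After stress the Dnajb1 ratio stood at -2.20 in AS and 0.49 in RC4, below and above both NT values. In AS it was above the value of 4.4% of genes and in RC4 above 69.5%. Dnaja1 went from -0.62 and -0.18 to -1.32 in AS and 0.07 in RC4. Dnajb4 went from -2.24 and -1.85 to -2.34 in AS and -0.92 in RC4, where it was above the value of 24.1% of genes. Dnaja4 stood at -2.42 in AS and 0.35 in RC4. The medians of all genes were between -0.10 and -0.02 in these 4 pairs of libraries. With 1 AS and 1 RC4 pair these changes were not tested. The Ft part of the AS ratios can also hold uncaptured RNA of the labelling hour.

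**Figure D4:**
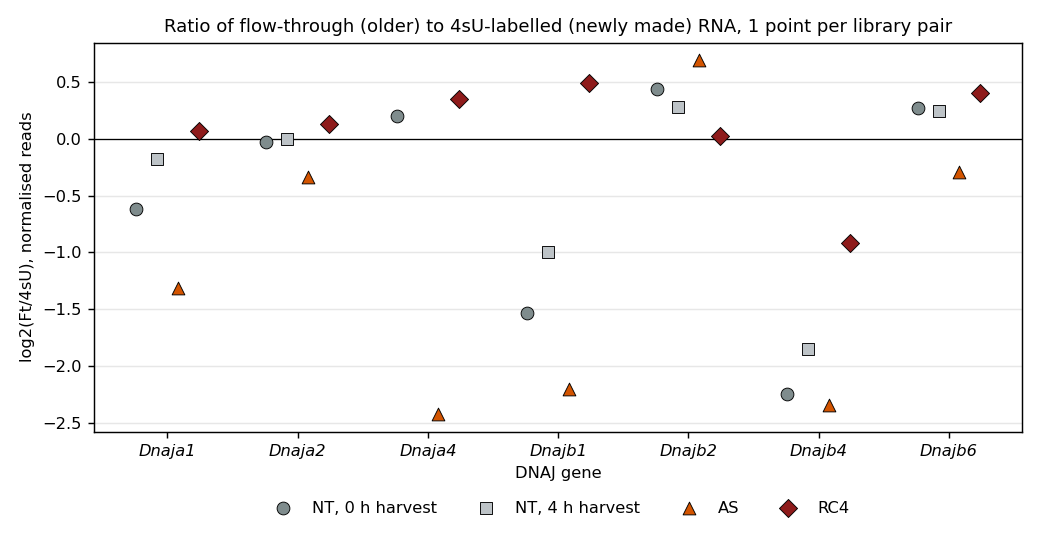
Log2 ratio of flow-through to 4sU RNA for each DNAJ gene in the 2 NT, the AS and the RC4 library pairs of NIH3T3 cells. Higher values mean relatively more flow-through RNA. Dnajb1 goes from -1.54 and -1.0 in NT to -2.20 in AS and 0.49 in RC4, and Dnajb4 from -2.24 and -1.85 to -2.34 and -0.92.

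The 3′UTR isoforms were compared as the share of dPAS reads in dPAS and pPAS reads. In total RNA the long isoform of Dnajb1 made up 78.0%, 79.9% and 79.1% of the NT reads (Wilson intervals of 68.9 to 85.0, 74.5 to 84.4 and 71.5 to 85.1) and 77.3%, 79.8% and 83.5% of the AS reads (73.6 to 80.6, 78.6 to 80.9 and 79.0 to 87.2). The groups overlapped, although the RNA had risen in each pair. In RC4 the share was 47.5% (45.2 to 49.8), in RC8 58.7% (51.6 to 65.5), in RC12 65.4% (58.3 to 71.9) and in RC24 72.7% (62.6 to 80.9). Two-sided Fisher's exact tests against NT replicate 4 gave P = 6.6e-13 in RC4, 0.00012 in RC8, 0.0085 in RC12 and 0.33 in RC24. These tests compare the reads of 1 library with those of another, not the conditions, and the intervals cover counting error only. Adjusted over all genes of each comparison, P was 2.8e-10 in RC4, 0.012 in RC8 and 0.29 in RC12. In RPM, the pPAS isoform went from 18.8 to 503 and the dPAS isoform from 71.0 to 455 between NT and RC4, and by RC8 they stood at 49.1 and 69.8. At 8 h the long isoform was close to its NT value and the short isoform above its own. Of all genes with a pair of sites, 12.8% had a lower dPAS share in RC4, 7.16% in RC8, 5.38% in RC12 and 2.70% in RC24. The calls for AS against NT were 9.12% lower in replicate 1, 9.54% lower and 5.39% higher in replicate 2, and 5.67% lower in replicate 4. In those AS pairs only Dnajb4 (lower, P = 0.037, adjusted 0.2) and Dnajb6 (higher, P = 0.028, adjusted 0.17), both in replicate 2, were called among the members by Fisher's exact test. The Dnajb6 pair lies 81 nt apart at the end of the long transcript, with 2.7% and 5.92% of the gene's reads, and does not include its main site. The replicated edgeR fit of the isoform ratio in total RNA called 0 of 6883 genes (0.00%), with 27 at an unadjusted p under 0.05 and 129 with the block, which also called 0. DESeq2 also called 0, with 32 at an unadjusted p under 0.05. The Dnajb1 value of the edgeR fit was 0.12 (log2, SE 0.87).

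**Figure D5:**
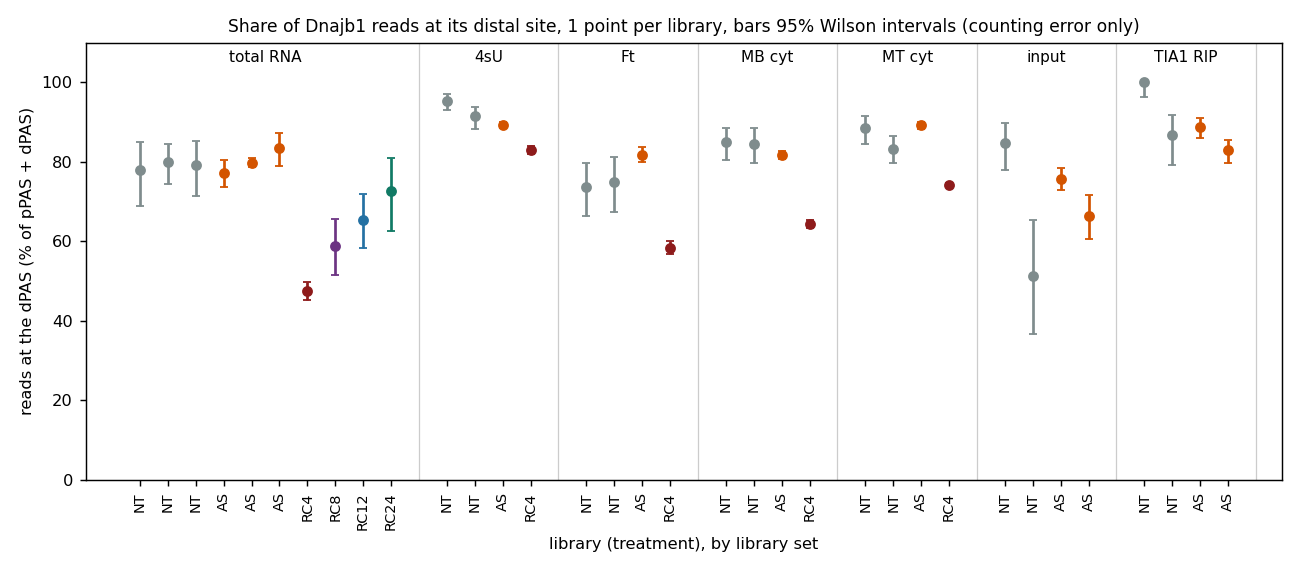
Share of Dnajb1 reads at the distal PAS (percent of distal plus proximal reads) in each library, with 95% Wilson intervals for counting error. In NIH3T3 total RNA the NT and AS libraries lie between 77.3% and 83.5%, RC4 at 47.5% and RC24 at 72.7%, and in the 4sU, Ft, MB and MT sets the RC4 library has the lowest share of its set.

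The same comparison in the other sets gave a lower Dnajb1 share in each RC4 library. In the 4sU fraction the share was 95.4% and 91.6% in NT, 89.3% in AS and 83.1% in RC4 (Fisher's exact P = 4.9e-17 for RC4). Treated libraries were set against the summed NT libraries, and in AS the change was under the line of 5 points. In Ft it was 73.6% and 75.0% in NT, 81.8% in AS (higher, P = 0.0029 by Fisher's exact test) and 58.4% in RC4 (P = 2.6e-08). The 4sU fraction carried a larger long share than Ft in each state. In MB it was 84.9% and 84.6% in NT, 81.8% in AS and 64.4% in RC4 (Fisher's exact P = 8.5e-26 for RC4). In MT it was 88.5% and 83.3% in NT, 89.3% in AS and 74.1% in RC4 (Fisher's exact P = 1.3e-13 for RC4). In MT of RC4 the library held 2435 RPM of the short and 6980 RPM of the long isoform. The shares of all genes called lower were 25.0% in AS and 25.7% in RC4 of the 4sU fraction, 31.2% in RC4 of Ft, 12.6% and 28.3% in AS and RC4 of MB, and 14.1% and 21.5% in MT, and 3.59% were called higher in AS of Ft. The median change of the log2 ratio of dPAS to pPAS reads over all genes in RC4 was -0.27 in total RNA, -0.42 in 4sU, -0.54 in Ft, -0.46 in MB and -0.32 in MT, and that of Dnajb1 was -2.06, -1.57, -1.04, -1.62 and -1.03 in the same order.

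Dnaja4, whose 2 sites are printed above, had a lower dPAS share in RC4 of the 4 sets in which it had enough reads. In MB the share was 52.5% in NT, 16.9% in AS and 12.7% in RC4 (Fisher's exact P = 5.6e-06 and 2.0e-08). In MT it was 40.9%, 37.0% and 16.7%, with Fisher's exact P = 0.59 for AS and 2.5e-08 for RC4. In the 4sU fraction it went from 26.9% to 4.8% and in Ft from 40.0% to 7.0% in RC4 (Fisher's exact P = 0.00052 and 0.00083). The 4sU NT value pooled libraries that differed, with 7 of 12 reads at the dPAS in the first and 0 of 14 in the second. The Ft NT value rests on 9 pPAS and 6 dPAS reads of 1 library, as Dnaja4 was listed at 0 in the other. Dnaja2 uses its dPAS, 996 nt further on, in few transcripts, and that share fell from 11.4% to 4.6% in 4sU RNA and from 10.6% to 2.4% in MB in RC4 (Fisher's exact P = 1.8e-29 and 3.0e-24). The pooled NT libraries differed here too, at 15.0% and 9.6% in 4sU and 7.1% and 14.9% in MB, and each RC4 share lay below both. Dnajb4 in MT went from 67.0% in NT to 48.0% in AS and 52.7% in RC4 (Fisher's exact P = 0.0073 and 0.012, and 0.053 and 0.061 when adjusted over all genes). In RC4 of MB it went from 69.8% to 53.8% (Fisher's exact P = 0.04, adjusted 0.12), and in AS of Ft it was higher, from 78.6% to 89.7% (Fisher's exact P = 0.031, adjusted 0.16). Dnaja1 in the 4sU fraction went the other way, from 94.5% in NT to 98.1% in RC4 (Fisher's exact P = 1.2e-06), a change under the line of 5 points. The aUTRs between the compared sites measured 934 nt in Dnajb1, 910 in Dnaja4, 926 in Dnajb4, 996 in Dnaja2 and 453 in Dnaja1 and held 9, 4, 17, 17 and 5 UUUU words. Over 23 comparisons of libraries the members gave 28 isoform calls in 88 values tested, where 23.2% of the values of all genes were called. With P adjusted over all genes 18 of the calls held. The share of all genes under adjusted P is not given here, so that count cannot be set against it.

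The TIA1 pull-down asked which transcripts the stress granule protein holds. The input gave the level after stress. Dnajb1 read 37.9 and 17.0 RPM in the NT input and 256 and 149 in the AS input, and Dnajb4 7.4 and 11.1 in NT and 36.4 and 85.3 in AS, with no overlap of groups for either gene. Dnajb1 was at a log2 fold change of 2.76 (SE 0.54, n = 2 against 2) with an edgeR adjusted p of 0.548, and at 2.78 (SE 0.35) with an edgeR adjusted p of 0.0104 under the replicate block. It passed too with DESeq2 (adjusted p = 0.000128) and with edgeR on unfiltered counts (0.0038). Dnajb4 was at 2.57 (SE 0.80, edgeR adjusted p = 1.00; with the block 2.47, SE 0.45, 0.0913). The fit without the block called 0.0103% of 9717 genes up and 0.00% down, 159 at an unadjusted p under 0.05, and that with the block 0.134% and 0.00%.

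The TIA1/input ratio was apart from 1 for 0 of 8 members in NT and 0 of 8 in AS by edgeR. In NT 1.81% of genes were called higher and 1.50% lower, and with the block 9.22% and 9.29%. In AS it was 0.257% and 0.545%, and with the block 9.65% and 7.34%. Dnajb4 read 13.2 and 48.3 RPM in the TIA1 libraries of NT, log2 ratios of 0.60 and 1.99, and 33.8 and 87.6 in AS, ratios of -0.37 and -0.18. Its NT value was 1.66 (SE 0.78, edgeR adjusted p = 0.248; with the block 1.39, SE 0.44, 0.0510). Dnaja1 read 25.4 and 10.9 RPM in TIA1 of NT, ratios of -0.72 and -1.70, and 68.5 and 39.2 in AS, ratios of 0.20 and -0.38. Its NT value was -1.11 (SE 0.53, edgeR adjusted p = 0.253; with the block -1.19, SE 0.40, 0.0629). Dnajb1 was at -0.28 (SE 0.51) in NT and -0.58 (SE 0.50, edgeR adjusted p = 0.570) in AS. The difference between AS and NT was called by edgeR for 0 of 9717 genes (0.00% in each direction), with 217 at an unadjusted p under 0.05, and 448 with the block, which also called 0. DESeq2 called 5 genes, all lower and no member among them. In that contrast Dnaja1 was at 1.20 and Dnajb4 at -1.75, each with an edgeR adjusted p of 1.00, and 0.961 with the block.

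The isoforms of Dnajb1 were compared in the same libraries. The long share was 84.8% and 51.2% in the NT input and 75.8% and 66.3% in the AS input, against 100% (103 reads, the pPAS not listed) and 86.7% in TIA1 of NT and 88.7% and 82.9% in TIA1 of AS. The 51.2% of NT input replicate 2 rests on 21 pPAS and 22 dPAS reads (Wilson interval of 36.8 to 65.4). In each replicate the TIA1 library had the larger share. Fisher's exact test of TIA1 against input gave P = 8.8e-06 in NT replicate 2, 1.5e-10 in AS replicate 1 and 5.4e-08 in AS replicate 2, while NT replicate 1 had too few pPAS reads to enter. Of all genes, 37.7%, 33.3% and 33.0% were called higher in those 3 comparisons. Against the NT input of its number, the share of the AS input was lower in replicate 1 (P = 0.022 by Fisher's exact test), where 10.8% of genes were called lower. In replicate 2, where 8.01% were called lower, it was 15.2 points higher and not called (Fisher's exact P = 0.061).

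Differentiation of untreated C2C12 cells was compared next, and 5 of 7 members tested passed. Dnajb1 read 153 and 125 RPM in MB and 46.9 and 45.8 in MT, a log2 fold change of -1.42 (SE 0.13, edgeR adjusted p = 4.7e-07, n = 2 against 2). Dnaja1 read 113 and 141 RPM in MB and 87.1 and 77.0 in MT (-0.48, SE 0.13, edgeR adjusted p = 0.0061). In the opposite direction, Dnajb2, which is known for high levels in neurons, read 83.9 and 55.2 RPM in MB and 115 and 106 in MT (0.84, SE 0.16, edgeR adjusted p = 0.0004). Dnaja4 read 22.8 and 24.6 RPM in MB and 32.9 and 28.7 in MT (0.53, SE 0.17, edgeR adjusted p = 0.0171), and Dnaja2 was at 0.26 (SE 0.11, edgeR adjusted p = 0.0494). The groups of Dnaja2 overlapped, at 653 and 838 RPM in MB and 787 and 815 in MT. Dnajb6 (0.29, SE 0.13, edgeR adjusted p = 0.0709) and Dnajb4 (-0.02, edgeR adjusted p = 0.937) did not pass, and Dnajc7 was too low to be tested. These 5 of 7 calls stand in a comparison that called 32.1% of 10232 genes higher and 29.4% lower. Without MT replicate 3 the count was 3. Dnaja1 then missed the line (edgeR adjusted p = 0.0933), as it did without MB replicate 3 (0.0620), Dnaja2 was lost without either MT replicate or without MB replicate 2, without the low-count filter (edgeR adjusted p = 0.0624) and with last exon sites only (0.0593), and Dnaja4 without MT replicate 2 (0.118) and in DESeq2 (0.165). The dPAS share of Dnajb1 went from 84.6% to 77.8% in replicate 3 (lower, Fisher's exact P = 0.037), where 6.03% of genes were called lower, and from 84.8% to 81.2% in replicate 2 (P = 0.28 by the same test). That of Dnaja4 went from 25.7% to 52.0% in replicate 2 (higher, Fisher's exact P = 0.00035; 15.3% of genes) and from 43.0% to 53.5% in replicate 3 (P = 0.14 by the same test).

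Across all 38 libraries the members spanned different ranges. Dnajb1 went from 17.0 to 9464 RPM with a median of 144, Dnaja1 from 10.9 to 1053 (95.7), Dnajb4 from 5.36 to 331 (35.1) and Dnaja4 from 0 to 356 (4.94). Dnaja2 went only from 296 to 1089 (637), Dnajb2 from 29.0 to 160 (60.5), and Dnajb6 from 46.0 to 813 (102). Dnajc7 stayed between 0 and 22.1 RPM (2.51), 449 reads in all, although its RNA-seq level was that of an expressed gene, so its 3′READS values rest on few reads. Dnajb6 had its main site 22 nt before the end of its short transcript Dnajb6-002, and the sites compared at the end of the long transcript Dnajb6-001 took 5.92% and 2.7% of its reads. The short-end share, a feature chosen after its values were seen, ranged from 56.2% to 100% with a median of 90.7%. It was 56.2% and 56.3% in the NT and AS total RNA replicate 1 libraries, which were also the lowest in Dnajb6 RPM, and 91.3% to 96.1% in the other NIH3T3 total RNA libraries. It was 83.4% and 80.1% in MB and 75.4% and 74.9% in MT total RNA.

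The genes whose log2 level was most like that of Dnajb1 over the 38 libraries, among 7937 genes, were Hspa1b (Pearson r = 0.876), Hspa1a (0.863), Bag3 (0.852), Atf3 (0.803) and Rnf19b (0.800). Among the members Dnaja1 stood at 0.81, Dnaja4 at 0.766, Dnajb4 at 0.708, Dnajb2 at 0.354, Dnaja2 at 0.247, Dnajb6 at -0.006 and Dnajc7 at -0.167. These values describe libraries that share cells, treatments and depth, and carry no test.

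As several members were high together, the promoter windows of RefSeq (GRCm38.p6, 250 bases before to 50 after the start) were searched for the inverted repeat bound by HSF1. The letters GAANNTTC or TTCNNGAA stood in 15.1% of 32851 windows and in 5 of the 16 windows of the 8 members, which belong to 4 genes. The 2 windows of Dnajb6 among them overlap and hold the same stretch. The stretches with these letters are given 5′ to 3′ on the gene's strand, with the match in capitals.
Dnaja1, chr4:40722336-40722359, plus strand: agcctctaGAAAATTCtacgaggc
Dnaja4, chr9:54699461-54699484, plus strand: acctccgcGAACGTTCtgggccta
Dnaja4, chr9:54699499-54699522, plus strand: tcctggcgGAACCTTCcgccggcg
Dnajb4, chr3:152193844-152193867, minus strand: gttcgctgTTCTAGAAagtacaga
Dnajb6, chr5:29735847-29735870, plus strand: tccgaGAATCTTCCGGAAcgctag
Of these 4 genes, Dnaja1, Dnaja4 and Dnajb4 were among the members called most often, as was Dnajb1, which has no match. Dnajb6 was called in 2 of the 14 single-library comparisons. Whether the letters bear on the calls was not tested. The longer form, with NNGAA after GAANNTTC or NNTTC after TTCNNGAA, contains the shorter and stood in 0.603% of all windows and in 2 windows of Dnajb6. These letters were not in the windows of Dnajb1, Dnaja2, Dnajb2 and Dnajc7.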

How the data were processed

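The authors deposited raw read counts. Per the labels and the study's methods, 3′READS reads were trimmed with cutadapt, aligned to mm9 with Bowtie 2, kept at high mapping quality with non-genomic Ts after the alignment, and clustered within 24 nt into PASs, and RNA-seq reads were aligned with STAR and counted over coding sequences. PAS counts below 5 are not listed, and both kinds of count were unnormalized. These sites were assigned to genes of the mm9 annotation (GENCODE vM1), with 61839 of 83916 clusters assigned and 348 left out as ambiguous. The 8 members and both gene lists were chosen with earlier results of these data known.

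Groups with replicates were tested with edgeR 4.0.16 (quasi-likelihood test, TMM, filterByExpr, Benjamini-Hochberg over all genes, threshold 0.05), on counts summed per gene, in R 4.3.3, with DESeq2 1.42.0 as an alternative. Single treated libraries were compared by median-ratio normalised counts plus a pseudocount of 1, past 2-fold against every NT library, for genes with a mean of at least 10 reads. Isoforms, each with more than 5 reads per library, were compared by two-sided Fisher's exact tests (P under 0.05 and a change above 5 points), and intervals are 95% Wilson intervals. For the log2 Ft/4sU and TIA1/input ratios per library, counts were scaled likewise, with no correction for uracil number. All members were named. Other DNAJ genes were named when past 2-fold in both newly made and total RNA at 4 h of recovery, at most 5 HSP70 partners by the size of their change in the total RNA fit, and the 5 genes most alike to Dnajb1 by Pearson correlation. Scripts were tested on simulated counts. Alternatives were the scaling, the filter, the tool, last exon sites only, the pseudocount, the fold, the pairing and leaving out each replicate.

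Replicate numbers paired the samples of the total RNA set, where deviations of same-numbered AS and NT libraries from their group means correlated at 0.852, 0.851 and 0.778. In the pull-down set, where TIA1 and input RNA came from the same lysate, the values were 0.228 to 0.469. 4sU and Ft libraries of a harvest time are fractions of the same RNA (0.182). Promoter windows were taken from RefSeq (GRCm38.p6) for 8 of 8 members.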

Additional observations from a re-analysis of the deposited data

Results flagged for a closer look

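These results were singled out because a member moved in opposite directions in 2 related comparisons, each with 1 treated library, so the differences were not tested. Dnajc7 had a mean log2 fold change over the NT libraries of -0.08 in AS and 0.23 in RC4 by RNA-seq, but -0.12 and -0.57, the same direction, when scaled to RPM. Dnajb2 had -0.16 in AS and 1.22 in RC4 of newly made RNA, and 0.23 in AS of the flow-through. Dnajb6 had -0.24 in AS and 0.46 in RC4 of MT cytoplasmic RNA.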

How the results depend on the processing

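Over all alternatives, counts of called members stayed within 1.5 times of the main count in 168 cases and did not in 17. The replicate block raised the count of members called from 0 to 1 in total RNA of AS and in input RNA, and from 2 to 4 for Ft/4sU, and input RNA also gave 1 without the low-count filter and with DESeq2. MB and MT total RNA share only a number (correlation 0.055), and the block added Dnajb6 there (edgeR adjusted p = 0.0401). Apart from these and the pooled fit of the recovery libraries, which called 4 members in RC4 and 0 in RC8, the block changed no count of member calls. A 1.5-fold line gave 3 members in AS of MT cytoplasm, 2 in RC8, 1 in RC12 and 2 in RC24. The share of all genes past that line is not given here, so these counts cannot be set against it. RC8 had 0 with a pseudocount of 5 and 0 in the pooled edgeR fit with the block, and RC24 had 1 when scaled to RPM. The isoform calls numbered 18 with adjusted P and 18 with more than 20 reads per isoform, again without the shares of all genes. Dnaja1 reversed in TIA1/input of AS to -0.0371 with median-ratio factors and -0.0376 with DESeq2. Dnajb6 reversed with last exon sites only to -0.0667 in Ft/4sU and -0.0512 in total RNA, and with median-ratio factors and DESeq2 to -0.0821 and -0.0818 in TIA1/input of AS and to -0.0544 and -0.0545 in its change from NT. The cause was not tested.

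With 1 replicate left out, members called ranged from 3 to 5 in MT against MB (3 without MT replicate 3), from 5 to 8 in 4sU RC4 (8 without NT replicate 2) and from 1 to 2 in AS of MT cytoplasm (2 without NT replicate 1). These counts are given without the shares of all genes called. The signs of some values that passed no test changed too. In total RNA of AS the ranges were -0.1881 to 0.753 for Dnaja2, -0.4755 to 0.5128 for Dnajb2, -0.4218 to 0.9594 for Dnajb6, -0.4302 to 0.7395 for Dnajc7 and -0.0384 to 0.2471 for the Dnajb1 isoform ratio. In input RNA they were -0.6822 to 0.3603 for Dnaja2, -0.0039 to 0.23 for Dnajb2 and -0.1435 to 0.5226 for Dnajb6. In TIA1/input of NT they were -0.7433 to 0.4116 for Dnajb1, -0.2163 to 0.3486 for Dnajb2 and -0.5678 to 0.4001 for Dnajb6. In TIA1/input of AS they were -0.3746 to 0.3315 for Dnaja1, -0.1826 to 0.8597 for Dnaja2, -0.0782 to 0.3723 for Dnajb2, -1.0417 to 0.5621 for Dnajb4 and -0.4407 to 0.4235 for Dnajb6. For the change of TIA1/input from NT to AS they were -0.9919 to 0.2265 for Dnajb1, -0.2378 to 0.4445 for Dnajb2 and -0.4977 to 0.498 for Dnajb6. In Ft/4sU they were -0.1202 to 0.1027 for Dnaja2 and -6.7315 to 0.4895 for Dnaja4, and in MT against MB -0.1293 to 0.0919 for Dnajb4.

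Listed reads limit Dnajc7 and the NT values of Dnaja4 most, and single recovery libraries leave most recovery values without a replicate.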
